A study of Drosophila melanogaster with 18 samples.

Results

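The proteasome is the protease that degrades proteins tagged with ubiquitin. Its core particle is a barrel of stacked rings, with alpha subunits forming the outer rings and the gate, and beta subunits forming the inner rings, in which Prosbeta1, Prosbeta2 and Prosbeta5 carry the proteolytic sites. The regulatory particle caps the core: its base holds the Rpt ATPases, which unfold substrates and feed them through the gate, together with the scaffolds Rpn1 and Rpn2 and the ubiquitin receptor Rpn13, and its lid holds the deubiquitinase Rpn11 among other Rpn subunits. Proteins that fail to fold in the endoplasmic reticulum (ER) are exported to the cytosol and degraded by this protease. The mRNAs of its subunits were followed here in Drosophila S2 cells, a hemocyte-like line of embryonic origin, under ER stress and RNAi.

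The subunits were chosen by CG gene number, 31 genes in all, of which 29 had a probe among the 7257 probes in the table. Prosalpha2 and Prosbeta1 were not analysed here. The measured set held 12 core genes (6 alpha and 6 beta) and 17 regulatory particle genes (6 Rpt and 11 Rpn). Values on all 18 arrays existed for 21 of the 29 genes, 11 core and 10 regulatory, and the gene with the fewest, the ubiquitin receptor Rpn10, had 15. Rpn12 had 2 probes. The first stands for the gene below. The second correlated with it at r = 0.966 over the 18 arrays, and the array by array differences between them ran from -0.46 to 0.36 in log2.

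Each of the 6 groups held 3 arrays. XBP-1 RNAi cells were given double-stranded RNA against XBP-1, a transcription factor of the ER stress response, and were sampled with DTT and without it. Arrays labelled IRE1 RNAi, whose label names the ER kinase and nuclease that splices XBP-1 mRNA, were also sampled with and without DTT. Control cells had no double-stranded RNA and were likewise sampled with and without DTT, so an RNAi difference includes any effect of double-stranded RNA itself. DTT, a reducing agent that breaks disulphide bonds and so causes ER stress, was used at 2 mM for 7.4 hours, and RNAi at about 15 µg/ml in repeated rounds. Each array compared 1 sample (Cy5) with a common reference (Cy3) made from S2 cells and embryos. Replicates carry the letters A, B and C, and nothing in the labels says that they were separate cultures, so the p-values measure a spread that may be technical. In RNA from a whole culture, fewer cells of a kind and less RNA per cell cannot be told apart.

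Values are log ratios of sample to reference, read here as log2 of Cy5 over Cy3, although neither the base nor the numerator is stated. A positive value means more of the mRNA in the sample than in the reference, and says nothing of which of 2 genes has more mRNA. An array held 3755 to 6696 values, the fewest on replicate A with DTT under the IRE1 RNAi label, and array medians ran from -0.81 to 0.24. The Ire1 probe read higher where the label says IRE1 RNAi, not lower: 0.80, 2.55 and 2.20 with DTT there, against 0.41, -0.58 and -0.39 on control arrays with DTT (2.04 in limma, adjusted p = 0.0127). Those groups are therefore named by their label only. The first Xbp1 probe averaged -1.13 ± 0.26 in XBP-1 RNAi cells without DTT, against -0.75 ± 0.57 in control cells without DTT (SD, n = 3 each), a difference that did not pass the test. Of 12 hemocyte markers 10 had a probe, 7 of which lay below the all-probe median (their median was -0.91, against -0.25), and 2 of them, Hml and eater, had values on 2 arrays each. Of 14 muscle, nerve and patterning genes that embryos in the reference could supply, 10 had a probe and 9 of these lay below the all-probe median (their median was -1.12). Both lists lay low, so their medians do not settle the direction of the ratio. The lowest genes of the second list, Mlc2 (-4.96), Tm2 (-3.34) and Mhc (-2.78), stood far below the reference under the reading used here.

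Without DTT, the proteasome subunit mRNAs stood near the top of every array relative to the reference. In these 9 arrays the median subunit lay between the 94.2 and 97.4 percentile of the array's own probes, in all 3 arms. With DTT the median percentile was lower on every array of every arm. It was 77.8, 60.4 and 62.6 (replicates A, B and C) with DTT in XBP-1 RNAi cells, against 97.4, 96.9 and 95.0 without DTT. Under the IRE1 RNAi label, it was 72.6, 51.4 and 70.9 with DTT, against 95.6, 97.0 and 95.9 without DTT. In control cells it was 79.4, 66.2 and 82.0 with DTT, against 95.0, 95.4 and 94.2 without DTT. Ranks within an array do not move when the array as a whole is shifted, so these values are free of the differences in array medians. They cover the 21 genes measured on all 18 arrays. The rank is taken among the 3755 to 6696 probes with a value on the array, so missing spots can move it. In none of the 3 arms did the arrays with DTT overlap the arrays without DTT in this rank. The rank is a summary over subunits and carries no test.

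**Figure D1:**
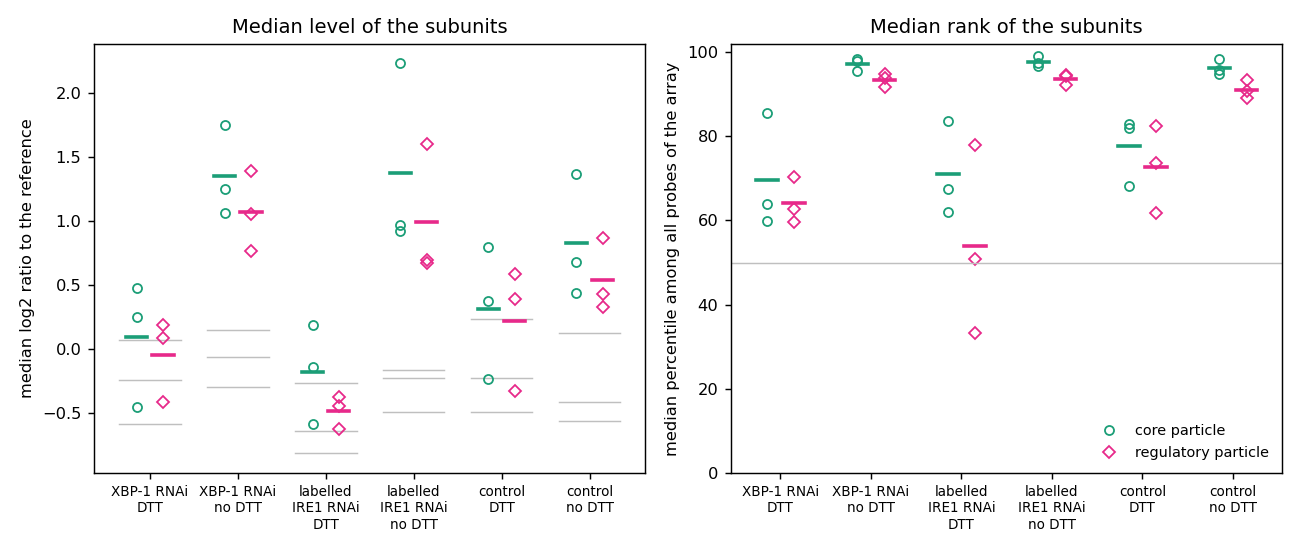
Left: median log2 ratio to the reference of the core (circles) and regulatory particle (diamonds) genes measured on all 18 arrays, 1 point per array, with the mean of the 3 arrays as a bar and the medians of all probes as grey lines. Right: the median percentile of the same genes among all probes of the array, where every group without DTT lies near the top and every group with DTT lies lower.

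The core and the regulatory particle were both lower in rank with DTT in every arm. The median core gene had a level of 0.09 ± 0.48 with DTT in XBP-1 RNAi cells, against 1.35 ± 0.36 without DTT (SD, n = 3 each). The median regulatory gene in those cells had -0.05 ± 0.32 with DTT, against 1.07 ± 0.32 without DTT. The core stood higher above the reference than the regulatory particle in all 9 arrays without DTT, by 0.11 to 0.63 in log2. With DTT the difference between core and regulatory medians was 0.40, 0.06 and -0.04 in XBP-1 RNAi cells, 0.82, 0.30 and -0.21 on arrays labelled IRE1 RNAi and 0.21, 0.10 and -0.02 in control cells. The negative values all belong to replicate C. Replicate A gave the widest difference in every one of the 6 groups. The lowest rank of either particle was that of the regulatory genes in replicate B with DTT under the IRE1 RNAi label, at the 33.2 percentile, against 62.0 for the core on that array. In replicate C of the same group the order was turned, with the regulatory genes at 77.9 and the core at 67.4.

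On the arrays labelled IRE1 RNAi the core median was -0.18 ± 0.39 with DTT, against 1.37 ± 0.74 without DTT. The regulatory median there was -0.48 ± 0.13 with DTT, against 0.99 ± 0.53 without DTT. When array medians were set to 0, the means with DTT became 0.39 for the core and 0.09 for the regulatory particle, since the medians of these 3 arrays were -0.64, -0.26 and -0.81. In control cells the core median was 0.32 ± 0.52 with DTT, against 0.83 ± 0.48 without DTT, and the regulatory median 0.22 ± 0.48 with DTT, against 0.54 ± 0.28 without DTT. In control cells those differences in the deposited log ratios were about as large as the spread between replicates.

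Effects of DTT on single genes were tested with limma in all 3 arms (2-sided moderated test, Benjamini-Hochberg adjustment over all probes tested, threshold 0.05, ± is the standard error). In XBP-1 RNAi cells 14 of the 29 subunit mRNAs fell and none rose, against 11.8% of all probes lower and 4.53% higher. All 29 estimates were below 0, with a median of -1.03 (range -1.95 to -0.37), against a median of -0.08 over all probes. Of all probes tested there, 3081 of 5649 were below 0. Under the IRE1 RNAi label, 16 of 29 fell and none rose, against 10.5% of all probes lower and 3.48% higher. Again all 29 estimates were below 0, with a median of -1.31 (range -2.06 to -0.56), against -0.24 over all probes. Of all probes tested under this label, 3970 of 5833 were below 0. These tests took no account of the replicate letters. With the letter as a block 20 subunits passed in XBP-1 RNAi cells, all lower, against 17.9% of all probes lower in that fit. On the arrays labelled IRE1 RNAi 26 passed, all lower, against 17.2%.

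In control cells none of the 29 passed in either direction, against 4.45% of all probes lower and 7.25% higher. There 27 estimates were below 0, with a median of -0.36 (range -0.90 to 0.26), while the median over all probes was 0.15. Of all probes tested in control cells, 2298 of 5935 were below 0. Only 1 subunit, Rpn12, had an unadjusted p under 0.05 in control cells, and it is the 1 that passed with the letter as a block (-0.90, adjusted p = 0.0297), where 7.94% of all probes were called lower. The control result depended on the scaling. Centring each array on its median gave 6 called subunits, all lower: Prosalpha4 (-0.87), Prosbeta6 (-0.75), Rpt4 (-0.77), Rpn7 (-0.76), Rpn9 (-0.67) and Rpn12 (-1.03). With this centring 12.1% of all probes were called lower and 11.9% higher. Quantile normalization gave 10 subunits, all lower, against 14.6% of all probes lower. Centring moved the median over all probes to 0.03 in control cells, 0.12 in XBP-1 RNAi cells and 0.02 on the arrays labelled IRE1 RNAi, while the subunit medians became -0.52, -0.84 and -1.03 in that order of arms.

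**Figure D2:**
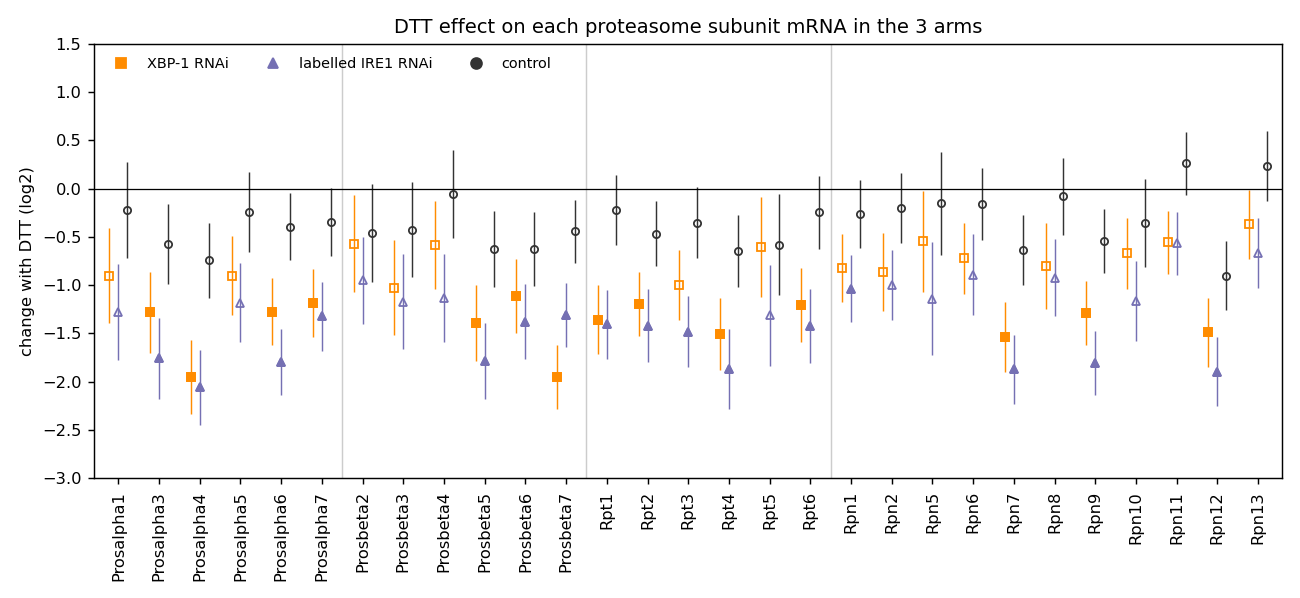
Change with DTT (log2, limma estimate with its standard error) of the 29 subunit mRNAs in XBP-1 RNAi cells (squares), on arrays labelled IRE1 RNAi (triangles) and in control cells (circles), with vertical lines between the alpha, beta, Rpt and Rpn genes. Filled symbols passed an adjusted p of 0.05: 14, 16 and 0 genes. All estimates in both RNAi arms lie below 0, and in control cells all but Rpn11 and Rpn13 do.

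The same 14 genes passed in both RNAi arms, which is 100% of the list in XBP-1 RNAi cells and 87.5% of the list on the arrays labelled IRE1 RNAi. They were Prosalpha3, Prosalpha4, Prosalpha6, Prosalpha7, Prosbeta5, Prosbeta6, Prosbeta7, Rpt1, Rpt2, Rpt4, Rpt6, Rpn7, Rpn9 and Rpn12. Rpt3 and Rpn1 passed on the arrays labelled IRE1 RNAi and not in XBP-1 RNAi cells, where their estimates were -1.0 (adjusted p = 0.0606) and -0.82 (adjusted p = 0.114). The Rpn1 call on the labelled arrays was lost in 4 of the 6 runs that left out 1 array. It was also lost with centring, with quantile normalization and with fewer groups in the fit. The 13 that passed in no arm were Prosalpha1, Prosalpha5, Prosbeta2, Prosbeta3, Prosbeta4, Rpt5, Rpn2, Rpn5, Rpn6, Rpn8, Rpn10, Rpn11 and Rpn13. The estimates of these 13 ran from -1.03 (Prosbeta3) to -0.37 (Rpn13) in XBP-1 RNAi cells, and Prosbeta6 (-1.12 ± 0.38, adjusted p = 0.0432) was the closest to them of those that passed. Under the IRE1 RNAi label the 13 ran from -1.31 (Rpt5) to -0.56 (Rpn11). Their standard errors were often larger than those of the called genes: in control cells the 6 largest, 0.46 to 0.53, belonged to Prosbeta4, Prosbeta3, Prosalpha1, Prosbeta2, Rpt5 and Rpn5.

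The arrays were also compared without a fitted error, by counting subunits whose groups did not overlap, with no test between arms. In XBP-1 RNAi cells 20 of 29 subunits had every array with DTT below every array without it, against 20% of all probes. On the arrays labelled IRE1 RNAi 22 of 29 did, against 26.4% of all probes. In control cells 3 of 29 did, the scaffold Rpn1 and the lid subunits Rpn9 and Rpn12, against 8.71% of all probes. No subunit had every array with DTT above every array without it in any arm, against 12% of all probes in XBP-1 RNAi cells, 6.6% on the arrays labelled IRE1 RNAi and 15.2% in control cells. Between arrays of the same letter, all 25 subunits measured on both were lower with DTT in replicate A of the labelled IRE1 RNAi arm, all 28 in replicate B and all 29 in replicate C. Of all probes, 77.7%, 49.4% and 71.2% were lower in those pairs. In XBP-1 RNAi cells 28 of 28, 24 of 27 and 28 of 29 subunits were lower in replicates A, B and C. There 70.6%, 27.5% and 68.7% of all probes were lower.

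Control cells were uneven between letters. There 25 of 29 subunits were lower with DTT in replicate A, 27 of 28 in replicate B and 16 of 27 in replicate C. Of all probes, 42.2%, 44.1% and 31.3% were lower in replicates A, B and C. The median difference of the subunits was -0.27 in replicate A, -0.73 in replicate B and -0.06 in replicate C. Over all probes the same differences were 0.10, 0.09 and 0.35, and 24 of the 27 subunits in replicate C lay below that letter's all-probe median. Rpn11 was the only subunit higher with DTT in all 3 letters of control cells. Without replicate B of the control arrays with DTT the median effect was -0.08, with 19 of 29 estimates below 0.

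Among alpha subunits, Prosalpha4 (CG number 3422), a ring subunit, had the lowest mean of the 3 DTT effects and Prosalpha5 (CG number 10938) the highest. Prosalpha4 had 0.06, 0.01 and -0.67 with DTT in XBP-1 RNAi cells, against 2.18, 1.45 and 1.63 without DTT. It had -0.19, -0.46 and -0.58 with DTT on arrays labelled IRE1 RNAi, against 2.48, 0.92 and 1.55 without DTT. Control values were 0.83, -0.26 and 0.73 with DTT, against 1.45, 0.83 and 1.25 without DTT. The groups did not overlap in either RNAi arm, and in control cells replicate A with DTT equalled replicate B without it. Prosalpha4 fell by 1.95 ± 0.39 in XBP-1 RNAi cells (3.87-fold lower, adjusted p = 0.000534) and by 2.06 ± 0.39 on arrays labelled IRE1 RNAi (4.17-fold lower, adjusted p = 0.000487). Its estimate in control cells was -0.74 ± 0.39 (adjusted p = 0.273).

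Prosalpha5 had 0.53, 0.25 and -0.45 with DTT in XBP-1 RNAi cells, against 1.49, 0.60 and 0.94 without DTT. It had 0.62, -0.14 and -0.82 with DTT on arrays labelled IRE1 RNAi, against 1.84, 0.46 and 0.90 without DTT. Values in control cells were 0.80, -0.14 and 0.38 with DTT, against 1.05, 0.33 and 0.39 without DTT. Replicate A was the highest array of each group for this gene, and only in XBP-1 RNAi cells did the groups not overlap. Its estimates were -0.90 ± 0.41 in XBP-1 RNAi cells (adjusted p = 0.144), -1.18 ± 0.41 on arrays labelled IRE1 RNAi (adjusted p = 0.0527) and -0.24 ± 0.41 in control cells (adjusted p = 0.806). Of the other alpha subunits Prosalpha3, Prosalpha6 and Prosalpha7 fell in both RNAi arms, with estimates of -1.28 to -1.18 in XBP-1 RNAi cells and -1.80 to -1.32 under the IRE1 RNAi label, and Prosalpha1 passed in neither (-0.90 and -1.28).

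Among beta subunits, the lowest mean effect was that of Prosbeta5 (CG number 12323), which carries the chymotrypsin-like site. Prosbeta5 had 0.56, -0.07 and -0.67 with DTT in XBP-1 RNAi cells, against 1.60, 1.06 and 1.34 without DTT. It had 0.19, -0.40 and -0.75 with DTT on arrays labelled IRE1 RNAi, against 2.29, 0.87 and 1.24 without DTT. Without RNAi the values were 0.69, -0.19 and -0.01 with DTT, against 1.16, 0.50 and 0.71 without DTT. The groups did not overlap in the RNAi arms and overlapped in control cells through replicate A with DTT. Prosbeta5 fell by 1.39 ± 0.39 in XBP-1 RNAi cells (2.63-fold lower, adjusted p = 0.0125) and by 1.79 ± 0.39 on arrays labelled IRE1 RNAi (3.45-fold lower, adjusted p = 0.0022). Its estimate in control cells was -0.63 ± 0.39 (adjusted p = 0.389). The call in XBP-1 RNAi cells was lost when either replicate A without DTT or replicate C with DTT was left out.

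Prosbeta4 (CG number 17331), a beta subunit with no proteolytic site, had the highest mean effect of its class. It had 1.57, 0.62 and 0.08 with DTT in XBP-1 RNAi cells, against 1.76, 0.98 and 1.28 without DTT. On arrays labelled IRE1 RNAi it had 1.14, 0.13 and -0.08 with DTT, against 2.70, 0.99 and 0.90 without DTT. In control cells it had 1.34, 0.19 and 0.98 with DTT, against 1.37, 0.57 and 0.73 without DTT. The groups overlapped in every arm. Its estimates were -0.58 ± 0.45 (adjusted p = 0.454), -1.13 ± 0.46 (adjusted p = 0.0993) and -0.05 ± 0.46 (adjusted p = 0.966) in the XBP-1 RNAi, labelled IRE1 RNAi and control arms. Prosbeta2, which carries the trypsin-like site, had estimates of -0.57, -0.95 and -0.46 in those arms and passed in none.

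Prosbeta7 (CG number 12000), another beta subunit with no proteolytic site, was singled out after its values were seen. It had -0.31, -0.66 and -0.62 with DTT in XBP-1 RNAi cells, against 1.73, 1.38 and 1.15 without DTT. It had 0.01, -0.08 and -0.37 with DTT on arrays labelled IRE1 RNAi, against 1.17, 1.28 and 1.03 without DTT. Control values were 0.73, -0.14 and 0.51 with DTT, against 0.83, 0.44 and 1.16 without DTT. In XBP-1 RNAi cells the gap between the groups was wide beside the spread within them. Prosbeta7 fell by 1.95 ± 0.33 in XBP-1 RNAi cells (3.86-fold lower, adjusted p = 8.69e-05) and by 1.31 ± 0.33 on arrays labelled IRE1 RNAi (2.47-fold lower, adjusted p = 0.00653). Its estimate in control cells was -0.44 ± 0.33 (adjusted p = 0.483).

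Of the 6 Rpt ATPases, 4 fell in XBP-1 RNAi cells, 5 on the arrays labelled IRE1 RNAi and none in control cells. Rpt4 (CG number 3455) had the lowest mean effect. It had -0.09, -0.01 and -0.51 with DTT in XBP-1 RNAi cells, against 1.83, 0.69 and 1.39 without DTT. On arrays labelled IRE1 RNAi it had -0.55 and -0.70 with DTT in replicates B and C, with no value for replicate A, against 1.72, 1.03 and 0.99 without DTT. Values in control cells were 0.70, -0.40 and 0.15 with DTT, against 1.30, 0.54 and 0.55 without DTT. The groups did not overlap in the RNAi arms. Rpt4 fell by 1.51 ± 0.37 in XBP-1 RNAi cells (2.84-fold lower, adjusted p = 0.00442) and by 1.87 ± 0.42 on arrays labelled IRE1 RNAi (3.66-fold lower, adjusted p = 0.00243), and its estimate in control cells was -0.65 ± 0.37 (adjusted p = 0.337).

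Rpt5 (CG number 10370) had the highest mean effect of the ATPases and passed in no arm. It had 0.83, -0.11 and -0.41 with DTT in XBP-1 RNAi cells, against 1.38, 0.49 and 0.25 without DTT. It had 0.49, -0.46 and -1.13 with DTT on arrays labelled IRE1 RNAi, against 2.23, 0.72 and -0.11 without DTT. Without RNAi the values were 0.61, -0.94 and 0.19 with DTT, against 1.48, 0.15 and -0.03 without DTT. Replicate A was high in all 6 groups, so the groups overlapped although the arrays with DTT were lower than those of the same letter without it in 8 of 9 pairs. Its estimates were -0.60 ± 0.52 (adjusted p = 0.511), -1.31 ± 0.52 (adjusted p = 0.095) and -0.58 ± 0.52 (adjusted p = 0.588) in the XBP-1 RNAi, labelled IRE1 RNAi and control arms.

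Among the Rpn subunits the lid subunit Rpn12 (CG4157), whose joining completes the lid in yeast, had the lowest mean effect. It had 0.12, 0.28 and -0.47 with DTT in XBP-1 RNAi cells, against 1.91, 1.04 and 1.45 without DTT. It had -0.67, -0.82 and -0.71 with DTT on arrays labelled IRE1 RNAi, against 1.64, 0.93 and 0.93 without DTT. In control cells it had 0.43, -0.59 and 0.09 with DTT, against 1.16, 0.45 and 1.03 without DTT. The groups did not overlap in any arm. Rpn12 fell by 1.49 ± 0.36 in XBP-1 RNAi cells (2.81-fold lower, adjusted p = 0.00339) and by 1.90 ± 0.36 on arrays labelled IRE1 RNAi (3.73-fold lower, adjusted p = 0.000487). Its estimate in control cells was -0.90 ± 0.36 (adjusted p = 0.110). The second Rpn12 probe gave -1.55, -1.99 and -0.73 in the XBP-1 RNAi, labelled IRE1 RNAi and control arms, with adjusted p-values of 0.00308, 0.000419 and 0.250.

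Rpn13 (CG number 13349), a ubiquitin receptor, had the highest mean effect of all 29 subunits. It had 0.65, 0.23 and 0.01 with DTT in XBP-1 RNAi cells, against 0.86, 0.24 and 0.90 without DTT. It had -0.05, -0.17 and -0.12 with DTT on arrays labelled IRE1 RNAi, against 1.20, 0.26 and 0.19 without DTT. Control values were 0.85, -0.06 and 0.74 with DTT, against 0.77, -0.02 and 0.07 without DTT. The groups overlapped except on the arrays labelled IRE1 RNAi, where all 3 arrays with DTT were low. Its estimates were -0.37 ± 0.36 (adjusted p = 0.573), -0.66 ± 0.36 (adjusted p = 0.261) and 0.24 ± 0.36 (adjusted p = 0.779) in the XBP-1 RNAi, labelled IRE1 RNAi and control arms.

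**Figure D3:**
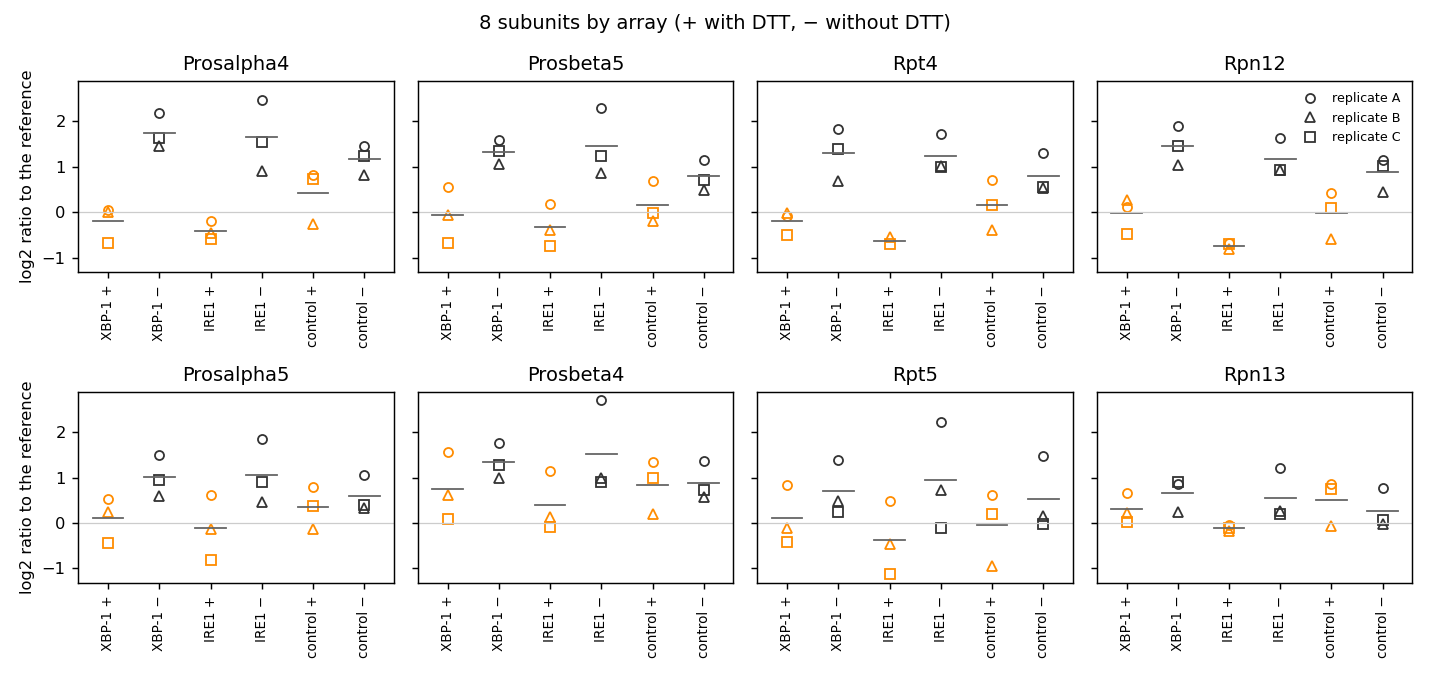
Log2 ratio to the reference on each array (symbols by replicate letter, bar for the mean) of the subunit with the lowest mean DTT effect in each class (upper row) and of the one with the highest (lower row). XBP-1 and IRE1 on the axis stand for XBP-1 RNAi and for the arrays labelled IRE1 RNAi. In the upper row the arrays with DTT lie below those without it in both RNAi arms, and in the lower row the groups mostly overlap.

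Within the regulatory particle, the lid and the base did not divide cleanly. Of 7 measured lid genes (Rpn5, Rpn6, Rpn7, Rpn8, Rpn9, Rpn11 and Rpn12) 3 passed in each RNAi arm, with median estimates of -0.80 in XBP-1 RNAi cells, -1.14 on arrays labelled IRE1 RNAi and -0.16 in control cells. Of 9 measured base genes (the Rpt genes with Rpn1, Rpn2 and Rpn13) 4 passed in XBP-1 RNAi cells and 6 on arrays labelled IRE1 RNAi, with median estimates of -1.0, -1.41 and -0.26 in the same order of arms. Effects within the lid ranged widely. Rpn7 had estimates of -1.54, -1.87 and -0.63 in that order, and Rpn11, the deubiquitinase, had -0.56, -0.56 and 0.26. Rpn11 had -0.08, 0.17 and 0.06 with DTT in XBP-1 RNAi cells, against 0.87, 0.17 and 0.78 without DTT. It had -0.58, 0.24 and -0.18 with DTT on arrays labelled IRE1 RNAi, against 0.30, 0.45 and 0.42 without DTT. Values in control cells were 0.57, 0.25 and 0.64 with DTT, against 0.32, -0.09 and 0.44 without DTT. None of the Rpn11 effects passed.

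Core and regulatory particle were compared by counts and medians, with no test over subunits. In XBP-1 RNAi cells 7 of 12 core and 7 of 17 regulatory genes fell, with medians of -1.15 and -0.87. Under the IRE1 RNAi label, 7 of 12 core and 9 of 17 regulatory genes fell, with medians of -1.32 and -1.31. In control cells the medians were -0.43 for the core and -0.26 for the regulatory particle, and none passed. The ranges overlapped in every arm: in XBP-1 RNAi cells the core ran from -1.95 to -0.57 and the regulatory particle from -1.54 to -0.37. The distance between the particles' medians was small beside these ranges.

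Whether the DTT effect differed between arms was tested as a difference of effects. For XBP-1 RNAi minus control, all 29 differences were below 0, with a median of -0.68, against -0.28 over all probes. Of all probes tested, 3898 of 5483 were below 0. None of the 29 passed in limma, against 0.802% of all probes lower and 0% higher, and 3 had an unadjusted p under 0.05. The lowest was Prosbeta7, with -1.51 ± 0.46 (adjusted p = 0.154), and the highest Rpt5, with -0.02 ± 0.73 (adjusted p = 0.996). With the letter as a block Prosbeta7 passed (adjusted p = 0.0302), against 3.08% of all probes lower in that fit, and it also passed without replicate B of the control arrays with DTT (-1.76, adjusted p = 0.0426). Centring gave a median of -0.35, with 3 subunits above 0, and quantile normalization gave -0.17, with 5 above 0. Rpt5 was among those above 0 under both scalings.

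For the arrays labelled IRE1 RNAi minus control, all 29 differences were again below 0, with a median of -0.98, against -0.44 over all probes. Of all probes tested, 4469 of 5594 were below 0. No subunit passed in limma, against 0.0358% of all probes lower and 0.0536% higher, and 9 subunits had an unadjusted p under 0.05. The lowest was the alpha subunit Prosalpha6 (CG number 4904), with -1.40 ± 0.48 (adjusted p = 0.337), and the highest Prosbeta2, with -0.49 ± 0.68 (adjusted p = 0.796). Centring gave a median of -0.58 and quantile normalization -0.29, with Prosbeta2 above 0 under the second. Between the RNAi arms, the arrays labelled IRE1 RNAi minus XBP-1 RNAi, the median difference was -0.29, against -0.18 over all probes, and ran from -0.71 (Rpt5) to 0.64 (Prosbeta7). None passed in limma, against 0% of all probes, and none had an unadjusted p under 0.05. A fall past the threshold in the RNAi arms and not in control cells is therefore not shown to differ between them. Prosbeta7 in XBP-1 RNAi cells passed only with the block, with block and centring together, or without control replicate B with DTT. Prosalpha6 under the IRE1 RNAi label passed only with block and centring together (-1.0, adjusted p = 0.046), a fit that called 2.63% of all probes lower. Each was 1 of 29 subunits, close to the share of all probes called lower in those block fits. Neither passed in the limma fit of all 18 arrays without the block.

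Without DTT, the subunit mRNAs of both RNAi arms stood above those of control cells in nearly every estimate, and none passed. XBP-1 RNAi minus control had a median of 0.46 over the 29 subunits, against 0.22 over all probes, from 0.17 (Prosbeta2) to 0.67 (the ATPase Rpt1). All 29 were above 0, while 1432 of 5729 probes were below 0. No subunit passed in limma, against 0% of all probes higher, and none had an unadjusted p under 0.05. The arrays labelled IRE1 RNAi minus control had a median of 0.37, against 0.03 over all probes, from -0.19 (Rpn6) to 0.71 (Prosalpha3). Of the subunits 26 were above 0, while 2659 of 5914 probes were below 0. Here too no subunit passed in limma, against 0% of all probes higher, and no subunit had an unadjusted p under 0.05. Quantile normalization reduced these medians to 0.08 and 0.06, with 20 and 21 subunits above 0, and the second was 0.10 when replicate A without DTT of the labelled IRE1 RNAi arm was left out.

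With DTT most of these differences lay below 0. XBP-1 RNAi minus control had a median of -0.23, against -0.04 over all probes, from -0.90 (Prosbeta7) to 0.15 (Rpt5). None of the 29 passed in limma, against 1.94% of all probes lower and 0.102% higher, and 1 had an unadjusted p under 0.05. This median was -0.02 without control replicate A with DTT and -0.04 without XBP-1 RNAi replicate C with DTT. The arrays labelled IRE1 RNAi minus control had a median of -0.66, against -0.40 over all probes, from -1.03 (Prosalpha6) to -0.32 (Rpt5). All 29 were below 0, as were 4964 of the 5868 probes tested. No subunit passed in limma, against 1.89% of all probes lower and 0.409% higher, and 9 subunits had an unadjusted p under 0.05. Centring reduced this median to -0.26, with 24 subunits below 0. The RNAi arms share their 3 control arrays in each condition.

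With the letter as a block, 2 subunits passed in the comparison of the arrays labelled IRE1 RNAi with control, both with DTT. They were Prosalpha6 (-1.03, adjusted p = 0.0238) and Rpt1 (-0.93, adjusted p = 0.0483). That fit called 6.46% of all probes lower, a share close to that of the subunits. Both calls were lost when the arrays were centred as well, at -0.62 for Prosalpha6 (adjusted p = 0.0535) and -0.52 for Rpt1 (adjusted p = 0.167). Prosalpha6 had -1.11, -0.51 and -0.77 with DTT on arrays labelled IRE1 RNAi, against 0.71, -0.23 and 0.22 with DTT in control cells. Rpt1 (CG number 1341) had -1.36, -0.61 and -0.06 with DTT on those arrays, against 0.57, -0.29 and 0.49 with DTT in control cells. For both genes the array labelled IRE1 RNAi was the lower of every letter pair. For Prosalpha6 the groups did not overlap, and for Rpt1 they did, through replicate C. Most probes lay lower on those arrays too: 4964 of 5868 estimates were below 0 in the fit without the block. The shares of all probes lower in every letter pair, or without overlap, were not computed for this comparison.

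**Figure D4:**
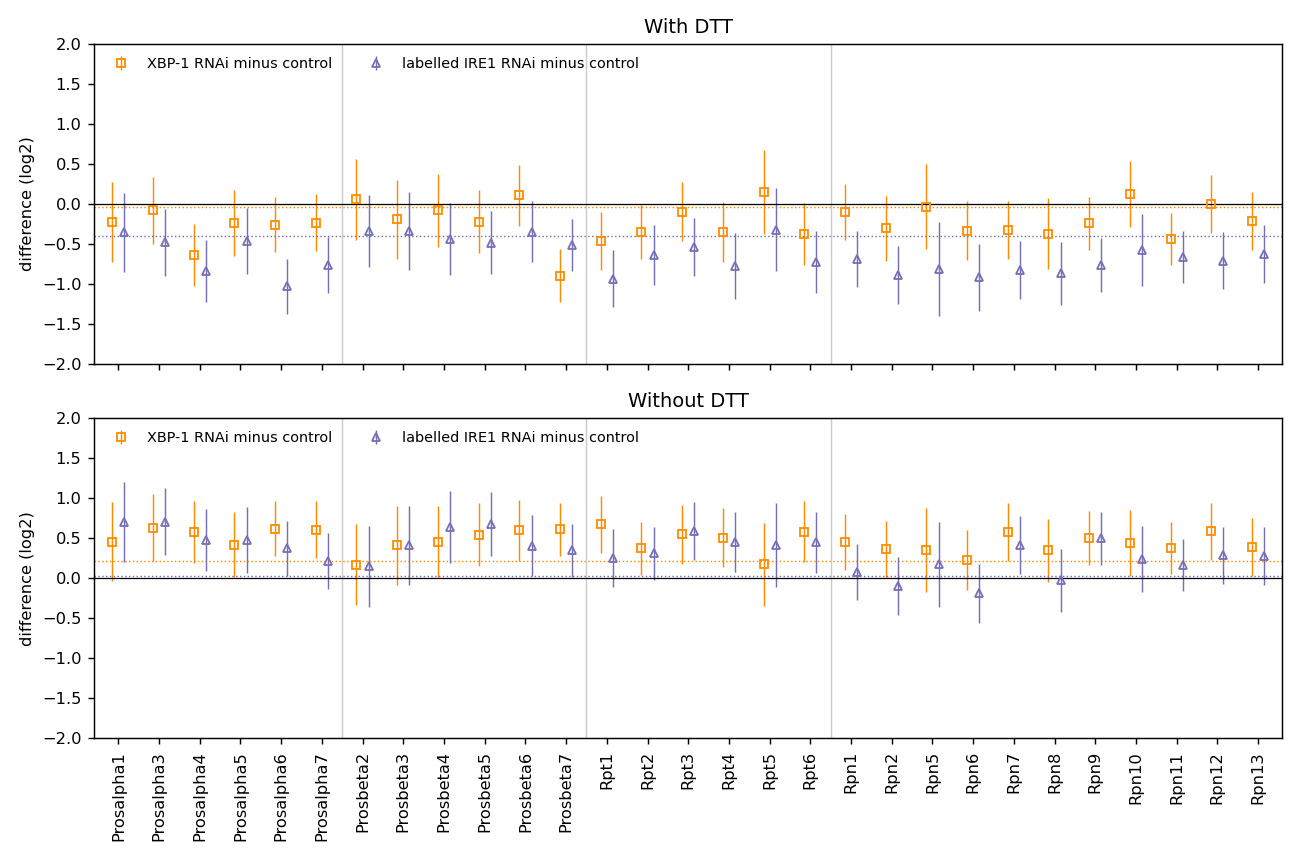
RNAi minus control (log2, limma estimate with its standard error) for the 29 subunit mRNAs with DTT (upper panel) and without DTT (lower panel), in XBP-1 RNAi cells (squares) and on arrays labelled IRE1 RNAi (triangles). Dotted lines mark the median over all probes in the same colour. Most estimates lie below 0 with DTT and above 0 without it, none passed the threshold, and several of those near 0 change sign when arrays are scaled otherwise.

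The subunits varied together from array to array. Over the 18 arrays the median correlation between pairs of the 21 complete subunits was r = 0.822, against 0.361 between pairs of all complete probes, which share the offset of each array. After centring of each array it was 0.737 among subunits, against 0.0149 among all pairs. After group means had been taken out as well, the subunit pairs had a median of 0.356, against 0.0279 among all pairs. Core pairs (0.821 after centring) correlated more than regulatory pairs (0.635), and core with regulatory pairs gave 0.728. These values describe 18 arrays that share a reference and replicate letters.

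Genes that work with the proteasome were taken from a list of 22, of which 19 had a probe and 18 could be tested for DTT. In XBP-1 RNAi cells 4 of 18 fell, against 11.8% of all probes lower. They were the lid subunit Rpn3 (-1.20), the p97 segregase TER94 (-1.20) and its cofactors Ufd1 (-1.46) and p47 (-1.19). On the arrays labelled IRE1 RNAi 5 of 18 fell, against 10.5% of all probes lower. They were Rpn3 (-1.55), TER94 (-1.38), Ufd1 (-1.34), p47 (-1.14) and the alternative cap REG (-1.37). In control cells none fell, against 4.45% of all probes lower. The polyubiquitin gene Ubi-p63E rose there by 1.17 (adjusted p = 0.0246), where 7.25% of all probes were called higher. The list's median DTT effect was -0.38 in XBP-1 RNAi cells, -0.87 on the arrays labelled IRE1 RNAi and 0.29 in control cells. Over all probes the medians were -0.08, -0.24 and 0.15 in that order of arms.

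The transcription factor gene cnc, whose CncC product activates proteasome genes in flies when the proteasome is inhibited, moved the other way from the subunits. It rose in all 3 arms, by 1.82 ± 0.36 in XBP-1 RNAi cells (adjusted p = 0.000543), 1.53 ± 0.36 on arrays labelled IRE1 RNAi (adjusted p = 0.00386) and 2.01 ± 0.36 in control cells (adjusted p = 0.000224). Its second probe gave 1.93, 1.78 and 2.32. The probe measures mRNA of the gene and not the form or activity of its protein.

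Rpn3, which is a lid subunit outside the 31 genes, was measured on all 18 arrays. It had -0.10, 0.20 and -0.22 with DTT in XBP-1 RNAi cells, against 1.51, 0.83 and 1.15 without DTT. It had -0.91, -0.34 and -0.53 with DTT on arrays labelled IRE1 RNAi, against 1.32, 0.67 and 0.89 without DTT. Without RNAi the values were 0.55, -0.37 and 0.62 with DTT, against 1.20, 0.38 and 0.87 without DTT. The groups did not overlap in the RNAi arms and did in control cells.

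Paralogs of the subunits that are expressed in the testis are close in sequence to some members, and cross-hybridisation between them was not tested. Of 14 such genes 10 had a probe, and their median level was -0.33, against -0.25 for all probes. Of 7 tested in XBP-1 RNAi cells 1 fell, Prosalpha4T1 (-0.96, adjusted p = 0.0449), a share close to the 11.8% of all probes called lower. None passed on the arrays labelled IRE1 RNAi (7 tested) or in control cells (9 tested). Of the muscle, nerve and patterning genes, the actin genes Act57B and Act88F fell in all 3 arms. They were among 8 tested in XBP-1 RNAi cells and 9 in the others. Act57B had a median log2 ratio of -0.92 and Act88F of 0.02, so Act88F did not read below the reference. No other gene of that list passed in either direction. Of all probes, 11.8%, 10.5% and 4.45% were called lower in the XBP-1 RNAi, labelled IRE1 RNAi and control arms. The median DTT effect of that list was -0.10 in XBP-1 RNAi cells, -0.06 on arrays labelled IRE1 RNAi and 0.42 in control cells. Of the hemocyte markers, Pvr, crq and vkg fell in XBP-1 RNAi cells (7 tested) and in control cells (8 tested). On the arrays labelled IRE1 RNAi, Pxn and vkg fell (8 tested). The part of these shifts in the subunit results was not tested.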

How the data were processed

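The deposited table gives log2 ratios of sample to reference, normalized by the authors in the NOMAD database per the labels, with spots under 1.5-fold above background, with an R2 under 0.5 or visibly defective removed. The base (log2) and numerator (Cy5) were assumed, and scanner intensities were not used here. Probe numbers were read as CG gene numbers. Groups and letters came from the titles. Each probe with at least 2 values per group was fitted by least squares with empirical Bayes moderation (limma 3.58.1, R 4.3.3) on 6 group means of 18 arrays, for 10 contrasts, after a test on simulated data. The number of arrays limits the precision. Alternatives were centring, quantile normalization, the letter as a block, at least 3 values per group, robust moderation, fewer groups and leaving out each array. Arrays of the same letter deviated together, with correlations of 0.231 to 0.701 within an arm. The main fit took no account of the letters, since the labels do not say what they mark. The letter as a block was fitted as an alternative only. The block model had 1 common variance for all probes, which may make its p-values too small. In each subunit class the genes with the lowest and highest mean DTT effect were named in full. Members and lists were chosen with earlier results of these data known.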

Additional observations from a re-analysis of the deposited data

Results flagged for a closer look

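The DTT estimates of the deubiquitinase gene Rpn11 had opposite signs in the RNAi arms and in control cells, and none of them passed. All 3 arrays with DTT lay below the mean without DTT in both RNAi arms, and all 3 lay above it in control cells. The difference of its DTT effects was -0.82 for XBP-1 RNAi minus control (adjusted p = 0.717 in limma) and -0.83 for the arrays labelled IRE1 RNAi minus control (adjusted p = 0.565 in limma). Neither difference passed the test. Over the 29 subunits the medians of the same differences were -0.68 and -0.98. Rpn13 had the same signs as Rpn11, with estimates of -0.37, -0.66 and 0.24 in the XBP-1 RNAi, labelled IRE1 RNAi and control arms.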

How the results depend on the processing

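Subunits called lower with DTT numbered 14 in XBP-1 RNAi cells, 22 with block and centring together and 7 to 15 over the runs that left out 1 array, with 9 when XBP-1 RNAi replicate A without DTT was left out and 7 when replicate C with DTT was. In every such run 7 of the 14 passed (Prosalpha4, Prosbeta7, Rpt1, Rpt4, Rpn7, Rpn9 and Rpn12). On the arrays labelled IRE1 RNAi 16 were called, 26 with the replicate block, 25 with block and centring, and 11 to 21 over the runs that left out 1 array. Of the 16, 7 passed in every such run, and Rpt2 and Rpt4 were not lost but could not be tested without replicate B or C with DTT. In control cells 0 were called, 6 with centring, 10 with quantile normalization, 1 with the replicate block and 12 with block and centring, and 0 without any 1 array. Block and centring together called 21.5% of all probes lower in XBP-1 RNAi cells, 18.8% on the arrays labelled IRE1 RNAi and 17% in control cells. Without either, the shares were 11.8%, 10.5% and 4.45% in that order of arms. In the difference of DTT effects, XBP-1 RNAi minus control, 0 were called, 1 with the replicate block, 1 with block and centring (Prosbeta7 in both) and 0 to 1 without 1 array. Of all probes, 4.65% were called lower with block and centring in that difference. For the label IRE1 RNAi minus control, block and centring called 1 (Prosalpha6). With DTT, XBP-1 RNAi minus control gave 1 with block and centring (Prosbeta7), where 5.76% of all probes were called lower. The label IRE1 RNAi minus control with DTT gave 2 with the replicate block and 0 with block and centring. The block changed no other count of calls by over 1.5 times. The cause of these moves was not tested.

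Over all probes the calls with DTT in control cells were 694 (62.0% higher), with centring 1421 (49.5% higher). In XBP-1 RNAi cells they were 921 (27.8% higher), with centring 1758 (46.9% higher), and on the arrays labelled IRE1 RNAi 813 (25.0% higher), with centring 1321 (39.3% higher). Single estimates near 0 changed sign. Rpt5 in the difference XBP-1 RNAi minus control was 0.28 with centring, with or without block, 0.52 with quantile normalization and -0.50 to 0.31 without 1 array. Prosbeta2 for the label IRE1 RNAi minus control was 0.21 with quantile normalization and -0.81 to 0.10 without 1 array, and for XBP-1 RNAi minus control without DTT -0.24 and -0.23 to 0.46. With DTT, Rpt5 was 0.093 with centring, with or without block, for the label IRE1 RNAi minus control (-0.77 to 0.062 without 1 array) and -0.30 to 0.48 for XBP-1 RNAi minus control. In control cells the DTT effect without 1 array ran from -0.59 to 0.17 for Prosalpha1, -0.76 to 0.048 for Prosbeta3, -0.31 to 0.27 for Prosbeta4, -0.38 to 0.05 for Rpt1, -0.43 to 0.10 for Rpt6, -0.40 to 0.12 for Rpn2, -0.85 to 0.42 for Rpn5, -0.40 to 0.25 for Rpn6 and -0.41 to 0.38 for Rpn8. The mean core and regulatory medians on the arrays labelled IRE1 RNAi with DTT became 0.393 and 0.09 with centring. Signal over background per spot was not analysed here.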
